A study of Mus musculus with 6 samples.

Results

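The genes described here encode the initiation and elongation factors of cytoplasmic translation. Their probe sets were chosen by name alone: every probe set assigned to exactly 1 gene whose symbol begins with Eif1 to Eif6, Eef1 or Eef2, leaving out the eIF2 kinases (Eif2ak genes) and Eif4ebp1. The rule gave 139 of the 45101 probe sets on the array, for 53 genes of the 18193 genes with a probe set of their own. No probe set of Eif4g1 or Eif2s1 met the rule, so neither gene was analysed here.

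The samples were 3 arrays from OVX + E2 mice and 3 arrays from OVX mice, hybridised to the Affymetrix Mouse Genome 430 2.0 array. All mice were female C57BL/6 animals, ovariectomized at 4 months of age. OVX + E2 mice carried a pellet with 0.18 mg of estradiol (E2), the main ovarian estrogen, for 60 days, and OVX mice carried a placebo pellet for the same time. The design has no group with intact ovaries, so every difference below is that of E2 replacement against ovariectomy alone. The sources used here do not say whether each array came from a separate mouse, so the p-values speak only of how far these 6 samples scatter, and that scatter may be technical in part.

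Translation starts when eIF2 brings the initiator tRNA to the small ribosomal subunit, eIF3 holds that complex together, and eIF4F recruits it to the capped end of the mRNA. The ribosome then elongates the chain with eEF1A, which delivers the aminoacyl-tRNAs, eEF1B, which recharges eEF1A with GTP, and eEF2, which drives translocation. Adult muscle fibres switch from the ubiquitous eEF1A1 to the eEF1A2 isoform after birth, and protein synthesis through these factors is a determinant of muscle mass.

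The sample titles name the left ventricle, whereas the study's methods give the soleus, a slow limb muscle, as the source of the transcriptome. Of 14 measured skeletal muscle markers, 14 had a probe set among the brightest 5% of the array, against 0 of 13 heart markers, so the RNA is called muscle RNA here. Across all 45101 probe sets, 96 reached an unadjusted p of 0.001, the threshold of the study's methods, and none had an adjusted p under 0.05 (limma with Benjamini-Hochberg adjustment, smallest adjusted p = 0.308), while 6216 (13.8%) had an unadjusted p under 0.05. The groups also differed with brightness. Probe sets with a mean log2 value of 8 or more had a median difference of -0.13, and 90.4% of these 8643 probe sets were lower in OVX + E2 arrays. The 36458 dimmer ones had a median of 0.012. All differences below are log2 values, OVX + E2 minus OVX.

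Most translation factors were lower in muscle of OVX + E2 mice than in muscle of OVX mice, by about as much as other probe sets of their brightness. With 1 probe set kept per gene, that of the largest interquartile range, 45 of the 53 genes had a difference below 0, beside 54.0% of all genes, and the median was -0.15, a fold of 0.904. An unadjusted p under 0.05 was reached by 21 genes, all lower in OVX + E2 arrays, where 13.0% of all genes were called in that direction. In 19 genes every OVX + E2 value lay below every OVX value, against 13.6% of all genes. Among the brighter genes, with a mean log2 value of 8 or more, 41 of 42 factors were below 0 with a median of -0.17, beside a median of -0.15 over all 4297 genes of that brightness. Of those 4297 genes, 91.4% were below 0, 37.6% had a p under 0.05 with a lower value in OVX + E2 arrays, and 36.5% did not overlap with the lower values in OVX + E2 arrays. These 3 shares are the background of the counts given below for complexes and lists with a median brightness of 8 or more. The eIF1 and eIF1A genes, eEF modifiers, eIF4E regulators, eIF2 kinases with their readouts, and hypusine and diphthamide enzymes had a lower one. Of all probe sets between 7 and 8, 58.5% were below 0, and 8.05% had a p under 0.05 with a lower value. Set against the median of its own range of brightness, 33 factor genes were below that median and 20 were above. Among the brighter genes 28 of the 42 factors were below it, beside 2402 of all 4297 genes. The median distance from it was -0.019 for these factors and -0.016 for all genes of that brightness.

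Counted by probe set, 107 of the 139 differences were below 0, beside 52.3% of all probe sets. The unadjusted p was under 0.05 for 38 probe sets with lower values in OVX + E2 arrays, where 9.43% of all probe sets were called that way, and for 1 with higher values, where 4.35% were. No overlap between the groups was seen for 39 probe sets with lower values (11.4% of all) and for 2 with higher values (9.76% of all). Of the 88 factor probe sets with a mean of 8 or more, 39.8% had a p under 0.05 and a lower value in OVX + E2 arrays, beside 32.8% of all probe sets of that brightness, and the same share, 39.8%, did not overlap, beside 33.6%. The 51 dimmer ones had a median of 0.012, with 22 below 0. By range of brightness, the 27 factor probe sets between 8 and 9 had a median of -0.12, beside -0.12 over all probe sets of the range. The 25 between 9 and 10 had -0.16, beside -0.15, and the 25 between 10 and 11 had -0.18, beside -0.16.

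**Figure D1:**
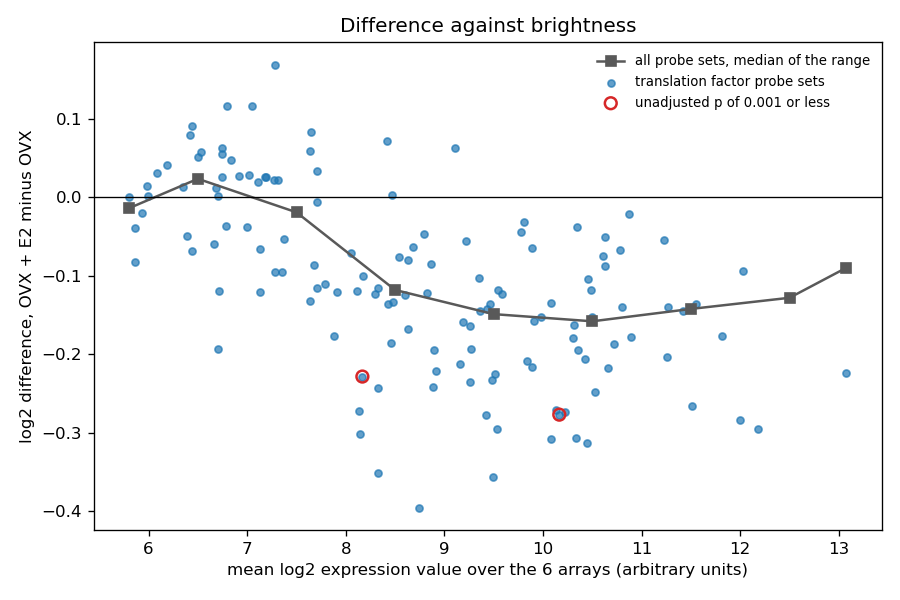
Log2 difference, OVX + E2 minus OVX, against brightness, the log2 value averaged over the 6 arrays, for the 139 translation factor probe sets (blue points), with the median of all probe sets in each range of brightness (grey squares, joined by a line and drawn at the middle of each range, and for the open first and last ranges at the dimmest and brightest factor). Dim factors scatter around 0 and bright ones lie mostly between 0 and -0.4, around the grey line, and Eif2d and Eif3k, the only factors to reach the threshold of 0.001, are ringed in red.

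At the study's threshold of an unadjusted p of 0.001, 2 of the 139 factor probe sets were called, Eif2d and Eif3k, where 0.213% of all probe sets were called. Among probe sets with a mean of 8 or more, these were 2 of 88 factor probe sets, beside 77 of all 8643. By gene, 2 of 42 brighter factors were called, beside 63 of all 4297 brighter genes. Both were lower in OVX + E2 arrays. Eif2d, which can deliver tRNA to the ribosome without GTP and takes part in recycling and re-initiation, had values of 8.05, 8.08 and 8.03 in OVX + E2 arrays, against 8.25, 8.31 and 8.29 in OVX arrays. All OVX + E2 values lay below all OVX values, and the gap between the groups was wider than the range within either. Eif2d fell by 0.23 (SE 0.038, unadjusted p = 4.67e-04, adjusted p = 0.308, limma). It has 6 probe sets, of which 4 had a difference below 0, and the next brightest, at -0.12 (unadjusted p = 0.0376), also did not overlap. The mean over its 6 probe sets was -0.066.

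Eif3k, the smallest and a peripheral subunit of eIF3, had values of 10.08, 10.03 and 9.97 in OVX + E2 arrays, against 10.36, 10.23 and 10.32 in OVX arrays. Again no value overlapped. Eif3k fell by 0.28 (SE 0.050, unadjusted p = 8.02e-04, adjusted p = 0.308, limma) and is measured by a single probe set. Both genes stayed lower in OVX + E2 arrays in every setting tried, but leaving out any single array ended the call of Eif2d (unadjusted p = 0.00120 to 0.00269), and leaving out any but OVX replicate 2 ended that of Eif3k (unadjusted p = 0.00162 to 0.00398). After cyclic loess, which evens out the dependence on brightness, Eif2d stood at -0.14 (unadjusted p = 0.00734) and Eif3k at -0.13 (unadjusted p = 0.0155).

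The promoter sequence before the annotated start is printed for these 2 genes because they alone passed the threshold. The sequences are from RefSeq on GRCm38.p6 and run 5′ to 3′ along the strand of the gene for the 100 bases just before its start. The Eif2d stretch is at chr1:131153107-131153206 on the plus strand and the Eif3k stretch is at chr7:28981889-28981988 on the minus strand. Capitals mark GCGCATGC, part of the palindrome bound by the transcription factor NRF1, which occurs in Eif3k on both strands with an overlap that completes the palindrome.
Eif2d: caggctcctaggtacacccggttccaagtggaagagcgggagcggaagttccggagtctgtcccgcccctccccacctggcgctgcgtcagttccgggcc
Eif3k: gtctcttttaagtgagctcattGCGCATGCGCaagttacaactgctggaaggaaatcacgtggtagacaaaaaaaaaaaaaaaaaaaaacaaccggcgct
The overlapping pair lies 78 to 69 bases before the start of Eif3k. Among promoters of 250 bases before to 50 bases after a start, GCGCATGC on either strand occurs in 2.71% of all 32851 RefSeq promoters and in 7.02% of the 57 promoters matched to 43 of the factor genes, those of Eef1a1, Eef2, Eif3k and Eif4h.

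The letters of an estrogen response element were searched on both strands of the same 57 promoters. The palindrome of GGTCA and its reverse complement TGACC with any 3 bases between them was in 0 of them, and in 23 of all 32851 promoters. AGGTCA, a single arm, was in 8.77% of the factor promoters, those of Eif2b2, Eif2s3x, Eif4enif1 and Eif5a, and in 16.3% of all promoters. CCGGAAGT, a core of ETS factor sites, was in 17.5% of the factor promoters (10 promoters of 8 genes) and in 3.89% of all promoters. Eif2d held none of these letters in its promoter and Eif3k held only the NRF1 letters. A match of letters says nothing of binding in these samples.

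Start site selection uses eIF1 and eIF1A, which bind the small subunit and hold it open for scanning. Of 4 measured genes 3 were below 0, with a median of -0.075. Eif1ax, an eIF1A gene, had 6.59, 6.65 and 6.58 in OVX + E2 arrays, against 6.72, 6.74 and 6.94 in OVX arrays. The groups did not overlap, with a difference of -0.19 (SE 0.064, unadjusted p = 0.0185), although dim probe sets of its range had a median of 0.024. Its brightest probe set had -0.15 (unadjusted p = 0.0440) and also did not overlap, but after cyclic loess it stood at -0.0036 (unadjusted p = 0.941). Eif1a, the other eIF1A gene, had 0.026 (unadjusted p = 0.675) and a wide overlap.

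The eIF2 complex carries the initiator tRNA, and its γ subunit is encoded by an X-linked and a Y-linked gene. Eif2s3x had 8.22, 8.55 and 7.23 in OVX + E2 arrays, against 8.35, 8.04 and 8.43 in OVX arrays. A single low array, OVX + E2 replicate 3, set its difference of -0.27 (SE 0.313, unadjusted p = 0.413), which became 0.19 without both arrays numbered 3. The brightest probe set of Eif2s3x had -0.19 (unadjusted p = 0.0266) with no overlap, and it stayed below 0, at -0.10, without both arrays numbered 3.

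Eif2s3y, which females lack, read between 5.95 and 6.05 on the 6 arrays with its kept probe set, at the 3.23rd percentile of the array, and differed by 0.0013. It is among the dimmest probe sets of the array. Eif2s2, the β subunit, was lower as well (-0.22, unadjusted p = 0.0388), and 5 of its 6 probe sets were below 0, among them the lowest difference of all 139, -0.40 (unadjusted p = 0.0433). On OVX replicate 3 that lowest probe set read 9.29, against 8.76 and 8.78 on the other OVX arrays. Without both arrays numbered 3 it had -0.11 (unadjusted p = 0.156).

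The exchange factor eIF2B reloads eIF2 with GTP and is the target of the stress response that lowers initiation. All 5 of its subunit genes were below 0, within the narrow range of -0.24 to -0.14, and 3 of the 5 had a p under 0.05, beside 37.6% of all genes with a mean of 8 or more. After cyclic loess or quantile normalization 0 of the 5 did. The extremes were Eif2b2 at -0.24 (unadjusted p = 0.0182) and Eif2b3 at -0.14 (unadjusted p = 0.0513). Eif2b5, the catalytic ε subunit, had 9.19, 9.11 and 9.23 in OVX + E2 arrays, against 9.30, 9.33 and 9.39 in OVX arrays, a difference of -0.16 (SE 0.046, unadjusted p = 0.00877). In 4 of the 5 genes, all but Eif2b1, the groups did not overlap, beside 36.5% of the genes of that brightness. The median of eIF2B was -0.14. Measured from the median of its own range of brightness, the 5 genes had a median distance of only -0.015.

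The scaffold eIF3 is the largest initiation factor. Of its 11 measured subunit genes 10 were below 0, with a median of -0.16, and 5 had a p under 0.05. Eif3a, the core subunit that spans the complex, had 10.36, 10.38 and 10.23 in OVX + E2 arrays, against 10.47, 10.54 and 10.59 in OVX arrays (-0.21, SE 0.056, unadjusted p = 0.00765). Eif3b, the other core subunit that nucleates the complex, was lower by a similar amount (-0.23, unadjusted p = 0.00896). For both genes every OVX + E2 array was below every OVX array.

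The lowest eIF3 value was that of Eif3c, -0.30 (SE 0.168, unadjusted p = 0.121). Its kept probe set had 9.42, 9.51 and 9.22 in OVX + E2 arrays, against 9.70, 9.32 and 10.02 in OVX arrays, and its difference was -0.045 without both arrays numbered 3. The other 3 probe sets of Eif3c were brighter and did not overlap, with -0.16 (unadjusted p = 0.0214), -0.19 (unadjusted p = 0.00209) and -0.22 (unadjusted p = 0.0102). Without both arrays numbered 3 these were at -0.15, -0.22 (unadjusted p = 0.00373) and -0.13. The only value above 0 was that of Eif3l, 0.091 (unadjusted p = 0.0769), and it came from a dim probe set. The brightest probe set of Eif3l had -0.15 (unadjusted p = 0.0388) with no overlap. Another had -0.037 (unadjusted p = 0.427), so 2 of its 3 probe sets were below 0 and only the dimmest was above.

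Cap recognition and unwinding fall to eIF4F, made of the cap-binding eIF4E, the scaffold eIF4G and the helicase eIF4A, with eIF4B and eIF4H as cofactors of the helicase. All 6 measured genes were below 0, with a median of -0.21, and 2 of the 6 had a p under 0.05. Eif4e had 9.95, 10.13 and 9.70 in OVX + E2 arrays, against 10.23, 10.05 and 10.44 in OVX arrays, a difference of -0.31 (SE 0.130, unadjusted p = 0.0495), and the groups overlapped. Eif4h had 10.76, 10.90 and 10.76 in OVX + E2 arrays, against 10.94, 10.98 and 11.02 in OVX arrays (-0.18, SE 0.052, unadjusted p = 0.0103). Of the 6 kept probe sets only that of Eif4h did not overlap. A dimmer probe set of Eif4e (-0.22, unadjusted p = 0.0142) and the brightest of Eif4b (-0.31, unadjusted p = 0.00945) also had every OVX + E2 value below every OVX value.

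Eif4g3, an eIF4G gene and the lowest of the 53 factors at -0.36 (SE 0.202, unadjusted p = 0.120), had 9.48, 9.17 and 9.28 in OVX + E2 arrays, against 9.45, 9.39 and 10.16 in OVX arrays. OVX replicate 3 was far above the other arrays, and the difference was -0.094 without both arrays numbered 3. Of the helicase genes, Eif4a1 differed by -0.23 (unadjusted p = 0.379) with a low OVX + E2 replicate 3 of 8.74, and Eif4a2, the highest of the 6, by -0.14 (unadjusted p = 0.206). Neither difference exceeded the spread between arrays.

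Among the homologues that act beside eIF4F, Eif4e2, a cap-binding protein linked to repression of translation, had the smallest p. It had 8.39, 8.37 and 8.34 in OVX + E2 arrays, against 8.58, 8.52 and 8.56 in OVX arrays, a difference of -0.19 (SE 0.037, unadjusted p = 0.00145). The arrays of each group lay close together and apart from the other group. Eif4e3, another cap-binding homologue, had -0.30 (unadjusted p = 0.108) and Eif4a3, the helicase of the exon junction complex, had 0.062 (unadjusted p = 0.155), both with overlap.

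Eif4ebp2, which sequesters eIF4E when it is not phosphorylated by mTOR, had 8.33, 8.16 and 7.98 in OVX + E2 arrays, against 8.39, 8.42 and 8.70 in OVX arrays. The groups did not overlap (-0.35, SE 0.110, unadjusted p = 0.0151), though OVX + E2 replicate 1 came close to the OVX arrays. Its other 4 probe sets had differences of -0.0998 to -0.059, each with overlap and none with a p under 0.05. Without both arrays numbered 3 the brightest of them was higher in OVX + E2 arrays (0.18, unadjusted p = 0.0244), so the probe sets of Eif4ebp2 then disagreed on the direction.

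Subunit joining uses eIF5, the GTPase activator of eIF2, and eIF5B, which unites the subunits, while eIF6 keeps the large subunit apart until it is needed. All 3 genes were below 0 with a median of -0.16, and 2 of the 3 had a p under 0.05. Eif5b had 9.38, 9.19 and 9.27 in OVX + E2 arrays, against 9.55, 9.50 and 9.62 in OVX arrays, a difference of -0.28 (SE 0.060, unadjusted p = 0.00235). Eif6 had 9.13, 9.16 and 9.04 in OVX + E2 arrays, against 9.29, 9.28 and 9.25 in OVX arrays (-0.16, SE 0.044, unadjusted p = 0.00805). In both genes all OVX + E2 arrays were below all OVX arrays, whereas Eif5 (-0.14, unadjusted p = 0.190) overlapped.

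**Figure D2:**
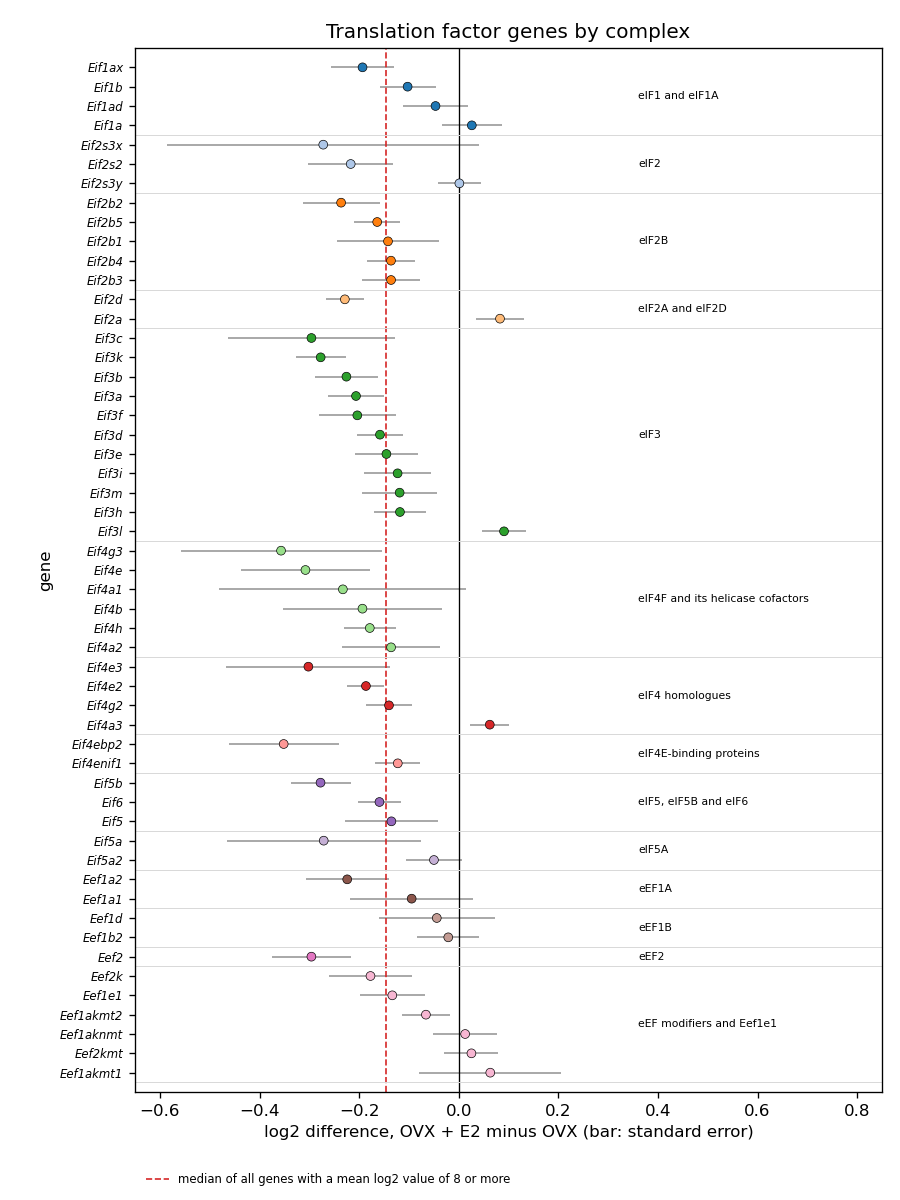
Log2 difference, OVX + E2 minus OVX (horizontal axis), for the 53 translation factor genes grouped by complex, with 1 probe set per gene (point) and its standard error from limma (bar). The dashed red line is the median of all genes with a mean log2 value of 8 or more, -0.15, and most factors lie around it, with 8 genes above 0.

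The elongation factor eEF1A exists in muscle as the products of Eef1a1, the widespread isoform, and Eef1a2, the isoform of adult muscle fibres and neurons. Eef1a2 had 13.07, 13.05 and 12.76 in OVX + E2 arrays, against 13.21, 13.15 and 13.19 in OVX arrays. Every OVX + E2 array was below every OVX array, with a difference of -0.22 (SE 0.084, unadjusted p = 0.0310, limma, exact permutation p = 0.1, the smallest that 20 labelings of 3 against 3 arrays allow). Eef1a1 had 11.99, 11.94 and 12.02 in OVX + E2 arrays, against 12.22, 12.25 and 11.77 in OVX arrays. OVX replicate 3 was the lowest of all 6 arrays and the other 2 OVX arrays were the highest, so that the groups overlapped (-0.094, SE 0.123, unadjusted p = 0.468, limma).

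The isoforms were compared within each array, as the Eef1a2 value minus the Eef1a1 value, which carries the unknown ratio of the 2 probe sets' sensitivities and is read only between groups. It was 1.08, 1.11 and 0.74 in OVX + E2 arrays, against 0.99, 0.90 and 1.43 in OVX arrays. The means were 0.977 ± 0.204 in OVX + E2 arrays and 1.11 ± 0.283 in OVX arrays (SD, n = 3 each), a difference of -0.13 (2-sided exact permutation p = 0.6). As 3 against 3 arrays allow no p under 0.1, this test could not have called a shift between the isoforms at 0.05. Both extremes came from arrays numbered 3, and without them the difference was 0.15, with the opposite sign. Eef1a1 itself was then at -0.27 (unadjusted p = 0.00156) and Eef1a2 at -0.12 (unadjusted p = 0.0576).

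The promoters of the isoforms are shown to place the pair side by side, again as the RefSeq bases on GRCm38.p6 just before each start and along the strand of the gene. Eef1a1 is at chr9:78481725-78481824 and Eef1a2 at chr2:181157016-181157115, both on the minus strand. Neither stretch of 100 bases holds CCGGAAGT or GCGCATGC on either strand, the Eef1a1 match lying further upstream, and neither whole promoter holds AGGTCA, so no letters are in capitals.
Eef1a1: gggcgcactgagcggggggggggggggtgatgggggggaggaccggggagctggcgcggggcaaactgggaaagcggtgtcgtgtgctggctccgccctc
Eef1a2: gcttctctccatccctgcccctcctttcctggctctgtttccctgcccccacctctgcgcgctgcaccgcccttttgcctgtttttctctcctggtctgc
The Eef1a1 stretch is rich in runs of g and the Eef1a2 stretch in runs of c and t.

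Of the remaining elongation factors, Eef2 had the lowest value. It had 12.18, 12.06 and 11.87 in OVX + E2 arrays, against 12.38, 12.29 and 12.33 in OVX arrays, a difference of -0.30 (SE 0.079, unadjusted p = 0.00683) with no overlap. Its kinase gene Eef2k, whose product phosphorylates eEF2 and slows elongation, had 7.92, 7.77 and 7.69 in OVX + E2 arrays, against 7.86, 7.94 and 8.12 in OVX arrays (-0.18, SE 0.084, unadjusted p = 0.0715). These values overlapped by a single OVX + E2 array, replicate 1.

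The 2 measured eEF1B genes had differences near 0 over all 6 arrays, with -0.021 for Eef1b2 (unadjusted p = 0.748) and -0.044 for Eef1d (unadjusted p = 0.715), beside medians of -0.16 and -0.15 over all probe sets of their ranges of brightness. Without both arrays numbered 3, Eef1b2 was at -0.098 (unadjusted p = 0.176) and Eef1d at -0.23 (unadjusted p = 0.0106), with its brightest probe set at -0.17 (unadjusted p = 0.0226). Eef1d holds the only factor probe set with a p under 0.05 and a higher value, at 0.17 (unadjusted p = 0.00679). That probe set is dim, and the brightest of the 4 Eef1d probe sets had -0.10 (unadjusted p = 0.104).

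Eif5a, the hypusine-containing factor that relieves stalled ribosomes, had 10.16, 10.30 and 9.52 in OVX + E2 arrays, against 10.25, 10.13 and 10.42 in OVX arrays. OVX + E2 replicate 3 again stood apart, and the difference was -0.27 (SE 0.194, unadjusted p = 0.205). A brighter Eif5a probe set had -0.28 (unadjusted p = 0.0383) with no overlap. The 6 genes of enzymes that modify eEF1A or eEF2 and of Eef1e1, a scaffold of tRNA synthetases, had a median of -0.026, with 3 of 6 below 0 and none with a p under 0.05. They ranged between Eef2k at -0.18 and Eef1akmt1, an eEF1A lysine methyltransferase, at 0.063 (unadjusted p = 0.670). Their median brightness was 7.54, and of all probe sets between 7 and 8, 58.5% were below 0.

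**Figure D3:**
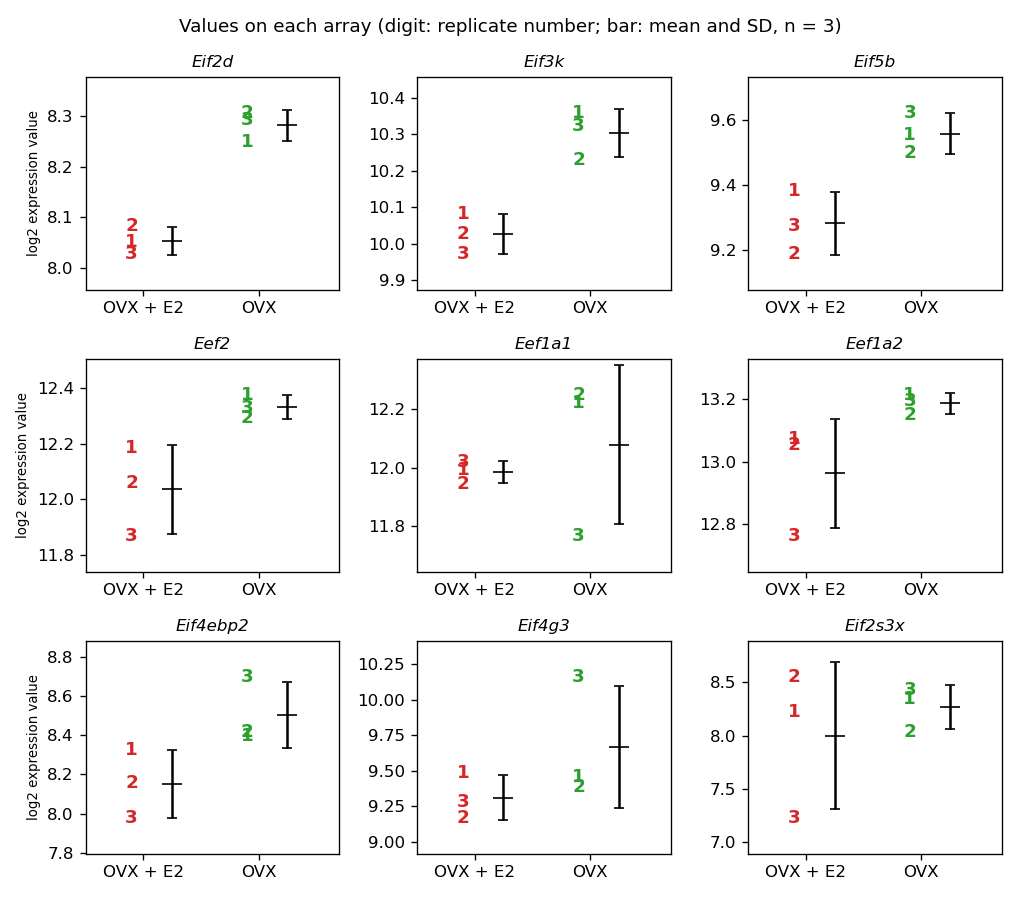
Log2 expression values of 9 translation factor genes on each array (vertical axis, arbitrary units, with its own range in each panel), OVX + E2 arrays in red and OVX arrays in green, each drawn as its replicate number, beside the group mean and SD (n = 3). Eif2d, Eif3k, Eif5b, Eef2, Eef1a2 and Eif4ebp2 do not overlap between groups, whereas Eef1a1, Eif4g3 and Eif2s3x each have 1 array numbered 3 far from the rest.

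The arrays numbered 3 carried much of the spread. OVX + E2 replicate 3 had the lowest value of the 6 arrays for 32 of the 53 factor genes, and OVX replicate 3 had the highest for 23. Both held at once for 16 genes (30.2%), beside 10.3% of all probe sets and 26.6% of those with a mean of 8 or more. The 16 genes included Eif2s2, Eif3a, Eif3b, Eif3c, Eif4e, Eif4e3, Eif4ebp2, Eif4h and Eif5a, and also Eif1ax and Eef2k, whose kept probe sets are dimmer than 8. OVX replicate 3 had the lowest value for 9 of the 53 factor genes, Eef1a1, Eef1d and Eef1akmt1 among them. It was lowest for 19.8% of all probe sets and for 11.2% of those with a mean of 8 or more.

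The same arrays differed in fast-fibre genes. The mean deviation of 12 fast-fibre genes from their 6-array means was 0.29, -0.19 and -1.28 in OVX + E2 arrays, against 0.13, 0.25 and 0.81 in OVX arrays. All 12 fast-fibre genes were below 0, with 2 at a p under 0.05, beside 37.6% of all genes with a mean of 8 or more, and a median of -0.40, and 5 of 10 slow-fibre genes were below 0 with a median of 0.0091. All 8 fibroblast genes were below 0, with a median of -0.29 and 3 at a p under 0.05. After cyclic loess or quantile normalization 0 genes of the fast-fibre and fibroblast lists had a p under 0.05. The part of fibre type and of fibroblasts in the factor values was not tested, and in bulk muscle fewer cells of a type and less RNA per cell cannot be told apart.

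Without both arrays numbered 3, 40 of the 53 factor genes were below 0 and their median was -0.099. The brighter factor genes then had a median of -0.12, beside -0.11 for all genes of that brightness. Of the kept probe sets, those of Eif2d (-0.21), Eif3k (-0.24), Eif5b (-0.24), Eif4e2 (-0.17), Eef2 (-0.21) and Eif4ebp2 (-0.17) stayed below 0. By contrast those of Eif2s3x (0.19), Eif4a1 (0.15) and Eif5a (0.044) then had differences above 0. The other probe sets of these 3 genes, all brighter, stayed below 0, with -0.077 and -0.10 for Eif2s3x, -0.020 and -0.066 for Eif4a1 and -0.092 for Eif5a.

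**Figure D4:**
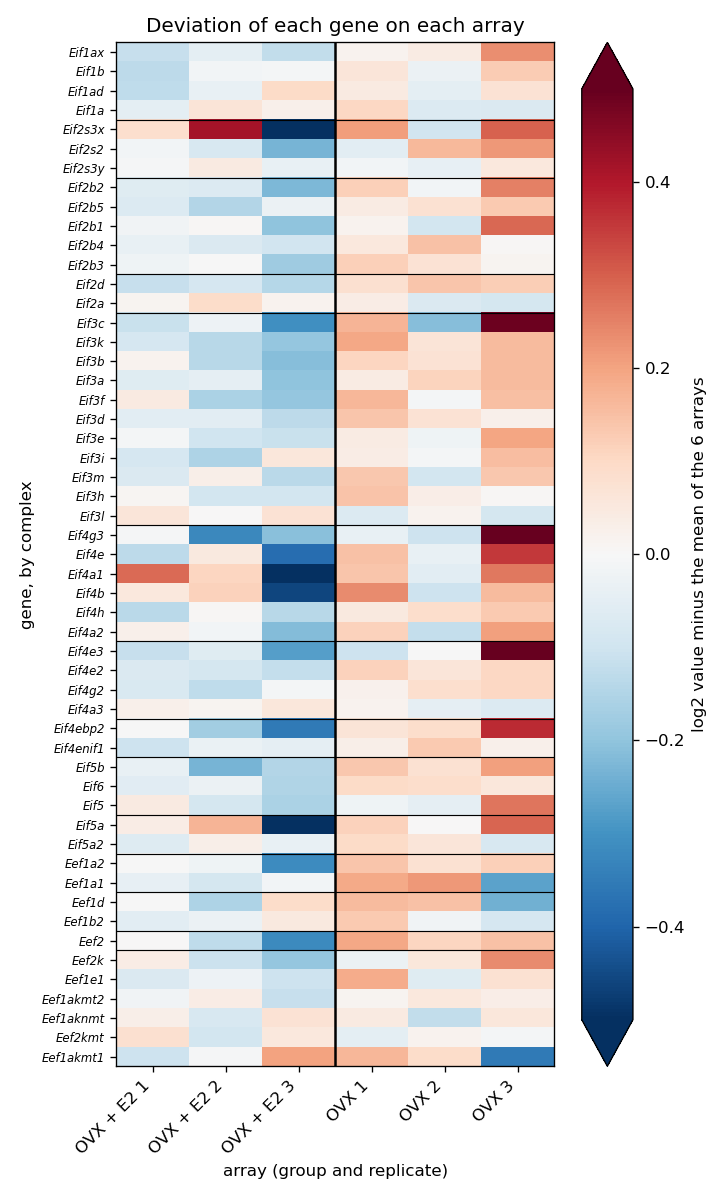
Log2 value minus the mean of the 6 arrays (colour, limited to -0.5 to 0.5) for the 53 translation factor genes (rows, in the order of their complexes, separated by lines) on the 3 OVX + E2 arrays and the 3 OVX arrays (columns). Blue prevails in the OVX + E2 columns and red in the OVX columns, most deeply on OVX + E2 replicate 3 and OVX replicate 3, while Eef1a1, Eef1d and Eef1akmt1 are blue on OVX replicate 3.

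The general lower level of the factors depended on how brightness was handled. After cyclic loess the median of the 53 genes was -0.027 with 32 below 0, and after quantile normalization it was -0.012 with 30 below 0. For the 42 brighter factor genes the median was -0.033 and -0.013 under the same 2 settings, beside -0.026 and -0.0077 over all 4297 brighter genes. After cyclic loess 5 factor genes kept a p under 0.05 with lower values in OVX + E2 arrays, where 5.06% of all genes were called that way. They were Eif1ax (-0.22, unadjusted p = 0.0107), Eif2d, Eif3k, Eif4ebp2 (-0.25, unadjusted p = 0.0394) and Eef2 (-0.16, unadjusted p = 0.0392). In the other direction 1 was called, Eif2a, an alternative initiator tRNA carrier (0.12, unadjusted p = 0.0312), where 4.6% of all genes were. The calls of Eif1ax, Eif2d, Eif4ebp2, Eef2 and Eif2a were those of the kept probe set alone, here and after quantile normalization. Eif3k has no other probe set. The next brightest of Eif2d had -0.037 (unadjusted p = 0.401), and the other, dim probe set of Eef2 had 0.030 (unadjusted p = 0.578). The other 2 probe sets of Eif1ax had -0.0036 and -0.053 (unadjusted p = 0.941 and 0.690), and the brightest of Eif2a had 0.035 (unadjusted p = 0.425) and its dimmest -0.073.

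After quantile normalization 4 were called lower, Eif1ax (-0.22, unadjusted p = 0.0108), Eif2d (-0.13, unadjusted p = 0.0113), Eif4ebp2 (-0.23, unadjusted p = 0.0441) and Eef2 (-0.15, unadjusted p = 0.0308), where 4.12% of all genes were, and Eif2a (0.14, unadjusted p = 0.0221) was called higher, where 5.4% of all genes were. Under either setting no gene of eIF2, eIF2B, eIF4F, the eIF4 homologues or the eIF5, eIF5B and eIF6 group was called. Of the complexes with at least 3 genes, eIF4F had the lowest median under both settings, -0.071 after cyclic loess and -0.052 after quantile normalization. The eIF1 and eIF1A genes had medians above 0 under both, 0.029 and 0.041.

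**Figure D5:**
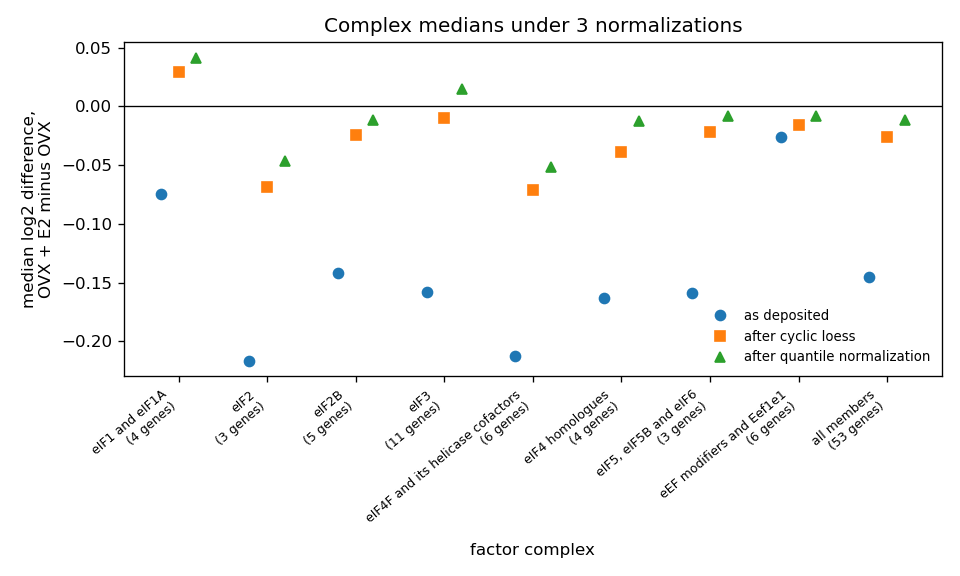
Median log2 difference, OVX + E2 minus OVX (vertical axis), of each factor complex with at least 3 measured genes and of all 53 genes, from the values as deposited (circles), after cyclic loess (squares) and after quantile normalization (triangles). The medians as deposited run between -0.22 and -0.026, and those of the other 2 settings between -0.071 and 0.041.

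Factor genes whose mRNAs are known to carry a 5′ terminal oligopyrimidine tract, the TOP element through which mTOR regulates translation, were all lower in OVX + E2 arrays, 11 of 11 with a median of -0.19, and 4 of them (36.4%) had a p under 0.05. They are also bright, with a median percentile of 98.1 among all probe sets, and of all genes with a mean of 8 or more 91.4% were below 0 and 37.6% had such a p. After cyclic loess 7 of the 11 were below 0 and after quantile normalization 6, with only Eef2 called. Regulators of eIF4E outside the name rule had 8 of 9 genes below 0 and a median of -0.16. Larp1, which represses TOP mRNAs, had 9.83, 9.73 and 9.66 in OVX + E2 arrays, against 9.93, 9.89 and 10.11 in OVX arrays (-0.24, SE 0.070, unadjusted p = 0.0115). Eif4ebp1 had -0.0040 (unadjusted p = 0.946), but its probe set was dim, with a mean log2 value of 6.94. All probe sets of that range of brightness had a median of 0.024, beside -0.15 for the range of Larp1. Larp1 did not overlap between groups, and Rps6kb2, an S6 kinase gene, was lower by a similar amount (-0.20, unadjusted p = 0.0127). After cyclic loess and quantile normalization Rps6kb2 kept a p under 0.05 (unadjusted p = 0.0239 and 0.0307) and Larp1 did not (unadjusted p = 0.174 and 0.266).

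The eIF2 kinases and the genes that the integrated stress response induces were balanced around 0, with 6 of 12 below 0 and a median of -0.00061. Their median brightness was 7.42, and all probe sets with a mean under 8 had a median of 0.012, so this balance lay near that background. Eif2ak1, the heme-regulated kinase, was the only gene of the list with a p under 0.05 (8.33% of the list, beside 13.0% of all genes called lower). It had 8.02, 8.10 and 7.96 in OVX + E2 arrays, against 8.27, 8.19 and 8.58 in OVX arrays (-0.32, SE 0.0999, unadjusted p = 0.0146), and it stayed called after cyclic loess and quantile normalization (unadjusted p = 0.0371 and 0.0376).

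Poly(A)-binding and termination factors were below 0 in 11 of 11 genes, with a median of -0.15, and 3 had a p under 0.05 (27.3%), beside 37.6% of all genes with a mean of 8 or more. Pabpc4, a cytoplasmic poly(A)-binding protein, had 10.88, 10.88 and 10.79 in OVX + E2 arrays, against 11.07, 11.01 and 11.04 in OVX arrays (-0.19, SE 0.043, unadjusted p = 0.00269). Abce1, which splits ribosomes after termination, was at -0.23 (unadjusted p = 0.0106). Neither gene overlapped between groups, and neither had a p under 0.05 after cyclic loess (unadjusted p = 0.222 for Pabpc4 and 0.0858 for Abce1) or quantile normalization (unadjusted p = 0.477 and 0.139). Only Paip1, which binds the poly(A)-binding protein, was called under these settings (-0.22 and -0.21), and it was not called on the deposited values (unadjusted p = 0.0587).

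Other helpers of initiation had 7 of 7 genes below 0 and a median of -0.18, with 3 (42.9%) at a p under 0.05, beside 37.6% of all genes with a mean of 8 or more. Among them Mcts1, the partner of DENR in re-initiation and a relative of eIF2D, had 9.31, 9.31 and 9.24 in OVX + E2 arrays, against 9.52, 9.44 and 9.52 in OVX arrays (-0.21, SE 0.042, unadjusted p = 0.00171). Abcf1, which promotes eIF2 function, was at -0.18 (unadjusted p = 0.0122). After cyclic loess or quantile normalization 0 of the 7 genes had a p under 0.05 (Mcts1 unadjusted p = 0.102 and 0.224, Abcf1 unadjusted p = 0.389 and 0.595).

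The enzymes of the hypusine of eIF5A and the diphthamide of eEF2 had a median of -0.015, with 8 of 9 below 0 and only Dhps, deoxyhypusine synthase, at a p under 0.05 (-0.13, unadjusted p = 0.0142). Their median brightness was 7.45, and of all probe sets between 7 and 8, 58.5% were below 0. Mitochondrial translation factors had 7 of 9 below 0 and a median of -0.066, and only Tufm, the mitochondrial EF-Tu, had a p under 0.05 (-0.20, unadjusted p = 0.00687). Neither Dhps nor Tufm had one after cyclic loess or quantile normalization. Each of these p-values rests on 3 arrays per group, which bounds its precision.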

How the data were processed

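The study measured muscle RNA of 3 OVX + E2 and 3 OVX samples on Affymetrix Mouse Genome 430 2.0 arrays. The authors normalized the probe intensities by variance stabilization and deposited log2 values of 45101 probe sets. The submitters' processing notes name R 2.14.2, and array files of the scanner were not used here. Groups came from the sample titles. Probe sets were named through the platform annotation: 34958 had 1 symbol, 932 several and 9211 none, and 8 with several symbols that include a factor were left out. For each gene the probe set of largest interquartile range was kept. Of the 53 genes, 16 had 1 probe set and 37 had several. Entrez identifiers of all 139 probe sets matched RefSeq.

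Differences were fitted over all probe sets with lmFit and eBayes in limma 3.58.1 (R 4.3.3), without covariates, on the deposited values, after the fit was tested on simulated data. Calls use the unadjusted p of 0.001 from the study's methods or 0.05, beside the share of all probe sets or genes called the same way, with Benjamini-Hochberg adjustment over all probe sets. Eef1a2 minus Eef1a1 was tested by exact permutation.

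The members, complexes and lists were chosen with earlier results of these data known. Genes were named by a rule: a list of core factors, genes at a p of 0.001, the 10 smallest p-values, the extremes of each complex, and up to 2 genes of each other list. The list of core factors also held Eif2d and Eif3k, because the study's supplementary gene list names them. Eif2s2, Eif2a, Eif2b1, Eif4b, Eif4enif1, Eef1b2, Eef1d and Paip1, the genes named for the pattern of arrays numbered 3, and the letters CCGGAAGT and GCGCATGC were named after values were seen. Alternatives were quantile normalization, cyclic loess with 3 iterations, median centring, a filter that keeps the brighter probe sets, a block on replicate number, an intensity trend, array weights, the brightest or the mean probe set of a gene, each array left out in turn, and, chosen after seeing the data, leaving out both arrays numbered 3.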

Additional observations from a re-analysis of the deposited data

How the results depend on the processing

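The median of the factor genes stayed below 0 in every setting, and its size depended on normalization and on the arrays numbered 3. After cyclic loess 32 of the 53 genes were below 0. Of the 42 brighter factor genes 27 were, beside 60.6% of all brighter genes. After quantile normalization 30 of the 53 were below 0, and 25 of the 42 brighter ones, beside 53.5% of all brighter genes. Under these 2 settings the direction of the brighter factors was thus near that background. The count of 2 at the threshold of 0.001 became 0 after quantile normalization, cyclic loess, the filter on brightness, the intensity trend or without both arrays numbered 3, and 0 to 1 with single arrays left out. Eif2d and Eif3k kept it with median centring and with array weights. The 38 probe sets lower at a p under 0.05 became 5 after quantile normalization, 6 after cyclic loess, 20 with the intensity trend, 24 without both arrays numbered 3 and 20 to 39 with single arrays left out, the 20 without OVX + E2 replicate 3. The 1 higher became 5, 3, 2 with array weights, 3 without both arrays numbered 3 and 1 to 3 with single arrays left out. The median of the 53 genes was -0.012 after quantile normalization, -0.027 after cyclic loess and -0.19 to -0.12 with single arrays left out.

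The complex medians after quantile normalization were 0.041 for eIF1 and eIF1A, -0.047 for eIF2, -0.012 for eIF2B, 0.015 for eIF3, -0.012 for the eIF4 homologues and -0.0083 for eIF5, eIF5B and eIF6. After cyclic loess they were 0.029, -0.069, -0.025, -0.0098, -0.039 and -0.022. The eEF modifiers had -0.066 with the filter on brightness and -0.050 with array weights. Without both arrays numbered 3 the eIF2 median was 0.046 and that of the eIF4 homologues -0.095, and with the mean over probe sets the homologues had -0.080 and the eIF5, eIF5B and eIF6 genes -0.076. That eIF2 median was the value of Eif2s3y, the gene that females lack, with Eif2s2 at -0.099 and Eif2s3x at 0.19. With single arrays left out the medians ranged from -0.11 to -0.028 for eIF1 and eIF1A, -0.27 to 0.019 for eIF2, -0.17 to -0.12 for eIF2B, -0.19 to -0.15 for eIF3, -0.31 to -0.11 for eIF4F, -0.17 to -0.11 for the eIF4 homologues, -0.19 to -0.12 for eIF5, eIF5B and eIF6 and -0.082 to -0.022 for the eEF modifiers. The eIF2 value of 0.019 was again that of Eif2s3y. Eef1a2 minus Eef1a1 was 0.15 without both arrays numbered 3 and -0.23 to 0.032 with single arrays left out, positive without OVX replicate 3.

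Single genes changed sign as follows. Eef1a1 had 0.085 after quantile normalization and 0.046 after cyclic loess, Eif4a2 0.043 and 0.0061, and Eif5 0.035 and 0.013. Without both arrays numbered 3, Eif4a2 had 0.0072, Eif5 0.0098, Eef1akmt1 -0.18, Eif1a -0.0094, Eif2s3x 0.19, Eif4a1 0.15 and Eif5a 0.044. With array weights Eef1akmt1 had -0.048 and Eif1a -0.021. Eif2s3y had -0.015 after median centring. Eif3l had -0.15 with its brightest probe set and -0.033 with the mean, where Eef1akmt1 had -0.030. With single arrays left out Eef1akmt1 ranged from -0.098 to 0.16, Eif1a from -0.0035 to 0.084, Eif2s3x from -0.55 to 0.11, Eif2s3y from -0.020 to 0.028 and Eif4a1 from -0.43 to 0.078. Where the cause is not the construction of the setting, the cause was not tested.

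The labels do not say whether the replicate numbers pair the arrays. The deviations of same-numbered arrays correlated at r = -0.125, -0.200 and -0.342, and those of the other pairs at -0.235 to 0.331. With 3 arrays per group these correlations cannot decide whether the arrays were paired. With the replicate block the count at a p of 0.001 was 0, that of probe sets lower at a p under 0.05 was 33, and no other count moved by over 1.5 times.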
